A study of Mus musculus with 9 samples.

Results

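Whether the aorta of mice given coenzyme Q10 (coQ10) during BAPN treatment matched a normal aorta was examined across genes. The coQ10 side was 1 RNA sequencing library and the normal side 2, so 3 of the series' 9 libraries carried the comparison, and a pair of libraries from mice given BAPN alone was read beside them. BAPN, β-aminopropionitrile, blocks the lysyl oxidases that cross-link elastin and collagen, and it was given at 1 g/kg/day to provoke dissection of the aorta. Every group was C57BL/6J, killed on day 28, with whole aorta as the tissue. The normal mice drank distilled water only. The coQ10 mice received BAPN plus coQ10 at 10 mg/kg/day by gavage, starting on day 7 or 14, and the labels do not say which of these days applies to the library. The library's treatment label is misspelled and was read as coQ10. Libraries of BAPN with TPA, which activates AP-1, a transcription factor (50 ng/g/day from day 1), and of BAPN with T-5224, an AP-1 inhibitor (5 mg/kg/day), 2 of each, are no side of the comparison. They entered the filter on mean level and the estimate of spread, and some of their values are given beside results. The T-5224 gavage also began on day 7 or 14, and its libraries, titled 2 and 3 weeks, were fitted as replicates although they differed widely (Col1a1 at 990 and 14.6 FPKM). The protocol speaks of 12 mice per group. It does not say how many mice gave a library, nor the age or sex of the mice.

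The wall of the aorta is built of layers of elastic fibres and smooth muscle, bound by collagen. Elastin, secreted as soluble tropoelastin, is laid on fibrillin microfibrils and cross-linked together with the fibrillar collagens by lysyl oxidases, which makes the wall stretch and recoil. Smooth muscle cells make most of this matrix, and they carry a contractile apparatus of smooth muscle actin, myosin and their regulators. Coenzyme Q carries electrons from complexes I and II to complex III of the mitochondrial respiratory chain and is also a lipid-soluble antioxidant.

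The libraries differed in ways the treatment labels do not name. Normal library 1 stood apart from normal library 2 (Pearson r = 0.852 across genes, on the log2 scale), and the coQ10 library was closer to normal library 2 (r = 0.934) than to normal library 1 (r = 0.884). The coQ10 library's highest correlation with any other library was with T-5224 replicate 1 (r = 0.94). Genes of tissues next to the aorta were high in normal library 1: the mean of log2(FPKM + 1) over airway and alveolar markers was 7.59 there, against 1.32 in normal library 2 and 0.90 in the coQ10 library. The cardiac muscle mean was 8.01 there, against 1.72 and 1.92. Fat and mesothelial markers were also higher in normal library 1, but for these the coQ10 library lay nearer to normal library 1. In the same order, the means were 8.96, 5.79 and 7.59 for white adipocytes, 5.84, 3.44 and 5.70 for brown adipocytes, and 5.04, 1.09 and 3.34 for mesothelium. The 4 Y-linked genes examined were listed at 0 in normal library 1 and above 0 in the other 8 libraries. Haemoglobin took 1.25% and 1.03% of the summed FPKM of normal aorta, 5.40% in the coQ10 library, and 68.9% and 74.1% in the BAPN libraries. The part of any of these differences in the results was not tested beyond the values given with them.

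No gene passed the test. Of 12997 genes with a mean FPKM (fragments per kilobase of transcript, scaled to the library's sequencing total) of at least 1, limma's moderated test called 0 higher and 0 lower at an adjusted p under 0.05, a share of 0%, and 352 had an unadjusted p under 0.05. With a single coQ10 library the spread came from the other groups, on 4 residual degrees of freedom, and the coQ10 library was assumed to vary as they did. The smallest adjusted p was 0.197, for Tmem254c. The results that follow are therefore positions of 1 library relative to 2 others, and none is a replicated difference. A gene was placed above or below the normal range when log2(FPKM + 1) in the coQ10 library lay at least 1 beyond both normal libraries, and inside the range when it lay between them. By that rule 210 genes (1.62%) lay above, 217 (1.67%) below and 5006 (38.5%) inside, and the others lay outside by less than 1. Median-of-ratios scaling put 231 above and 141 below, which moved the split towards genes above. Without normal library 1 the counts were 1243 above and 594 below, and without normal library 2 they were 434 and 1802. The genes nearest the limit were Tmem9, 0.993 above the range, and Ift27, 1.00 above it, with Wdr47, 0.998 below, and Gfpt1, 1.00 below. Genes above the range had shorter transcripts (median longest transcript 2067 bases) than all tested genes (3336 bases), and genes below it longer ones (3692 bases).

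Many matrix genes lay above the normal range. In bulk tissue, the number of cells of a type and the RNA per cell cannot be told apart, here or in the results that follow. Of 147 tested genes on 6 matrix lists, 27 (18.4%) lay above it and 0 below, against 1.62% and 1.67% of all tested genes. A further count without the margin had 80 of the 147 higher than both normal libraries and 19 lower than both, where 25.1% of all tested genes were higher and 36.4% lower. The median difference of the 147 was 0.49 on the log2 scale, where that of all tested genes was -0.10. The 27 became 29 after median-of-ratios scaling, 29 after removal of a trend with transcript length, 20 after rescaling to TPM and 21 with haemoglobin left out. Leaving out normal library 1 gave 45 and leaving out normal library 2 gave 49.

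Elastic fibre genes had 8 of 24 tested members above the range. Eln, which encodes tropoelastin (chromosome 5, 134702595 to 134747368, GRCm38), had an FPKM of 424 and 1194 in normal aorta and 7100 in the coQ10 library, with 453 and 114 in the BAPN libraries. That was 5.95 times the higher normal library, and limma's log2 difference was 3.32 (SE 2.47). The normal libraries themselves spanned a wide range for Eln, and the coQ10 value lay beyond it on every scaling tried. Mfap4, a microfibril-associated protein, had 215 and 507 in normal aorta and 1175 in the coQ10 library. Fbn1, fibrillin-1 of the microfibrils, had 29.9 and 34.4 against 86.0. Mfap2 had 9.48 and 4.41 against 38.2, the largest ratio of the list after Eln (4.02 times the higher normal library). The assembly proteins fibulin-5 (Fbln5, 52.6 and 99.5 against 221) and Emilin1 (27.1 and 35.4 against 77.5) lay above the range too, as did the latent TGF-beta binding protein Ltbp2 (13.0 and 36.5 against 96.6). Lox, a lysyl oxidase and so a target of BAPN, had 20.7 and 62.3 in the normal pair, 70.6 and 40.0 in the BAPN pair and 186 in the coQ10 library. Its relatives Loxl1 (80.7 and 142 against 223), Loxl2 (15.3 and 9.62 against 28.3) and Loxl3 (12.0 and 26.4 against 32.4) exceeded both normal libraries by less than the margin. Loxl4 was inside the range. Ltbp1 and Ltbp4, which hold latent TGF-beta in the matrix, were below the range in both BAPN libraries and inside it in the coQ10 library.

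Fibrillar collagen genes had 7 of 26 tested members above the range. Col1a1, a chain of type I collagen (chromosome 11, 94936224 to 94953042), had 153 and 165 FPKM in the normal pair, 166 and 114 in the BAPN pair and 1169 in the coQ10 library. The normal libraries were close to each other (159 ± 8.9, SD, n = 2), and the coQ10 value was 7.07 times the higher of them. Even so limma's log2 difference of 2.87 had an SE of 2.04. The T-5224 pair was far apart for this gene (990 and 14.6 FPKM), unlike the TPA pair (518 and 368) and the BAPN pair. The partner chain Col1a2 had 209 and 339 against 1078, and Col3a1, the collagen of distensible tissue, had 217 and 239 against 1118. Of the type V chains, which set fibril diameter, Col5a1 (32.1 and 55.1 against 130) and Col5a2 (38.3 and 60.3 against 165) were above as well. The type V chain Col5a3 was inside the range (6.88 and 1.84 against 5.00), as were Col11a1 and Col11a2. Col8a1, a short-chain collagen of vessels, had 5.74 and 3.47 against 31.3. P4ha3, a prolyl hydroxylase subunit that modifies collagen chains, had 0.64 and 0.19 against 3.89. P4ha3 also exceeded both normal libraries in the BAPN libraries (2.61 and 3.06), whereas Col5a1 was lower than both there (17.2 and 7.11).

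A stretch of the Col1a2 promoter is shown because type I collagen promoters are a textbook case of the CCAAT box. RefSeq (GRCm38.p6) gave a promoter for 19 of the 27 matrix genes above the range, and 7 of the 19 had the letters CCAAT, on either strand, in the 250 bases before the start. Of all 32851 promoters, 33.8% had them, so the share among the matrix genes was near that of promoters in general. Here and for the motifs below, a gene was counted if any of its promoter entries had a match, while the share of all promoters counts single entries. A gene with several entries had more chances to match, so these shares are not in the same unit. The capitals mark the CCAAT letters as read on either strand, and the sequence is given 5′ to 3′ on the gene's strand.
Col1a2 (chr6:4505368-4505617, plus strand): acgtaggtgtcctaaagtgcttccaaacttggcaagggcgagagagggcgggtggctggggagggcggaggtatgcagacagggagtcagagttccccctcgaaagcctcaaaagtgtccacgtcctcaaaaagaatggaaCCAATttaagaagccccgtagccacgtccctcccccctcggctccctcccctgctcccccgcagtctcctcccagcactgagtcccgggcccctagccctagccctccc

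**Figure D1:**
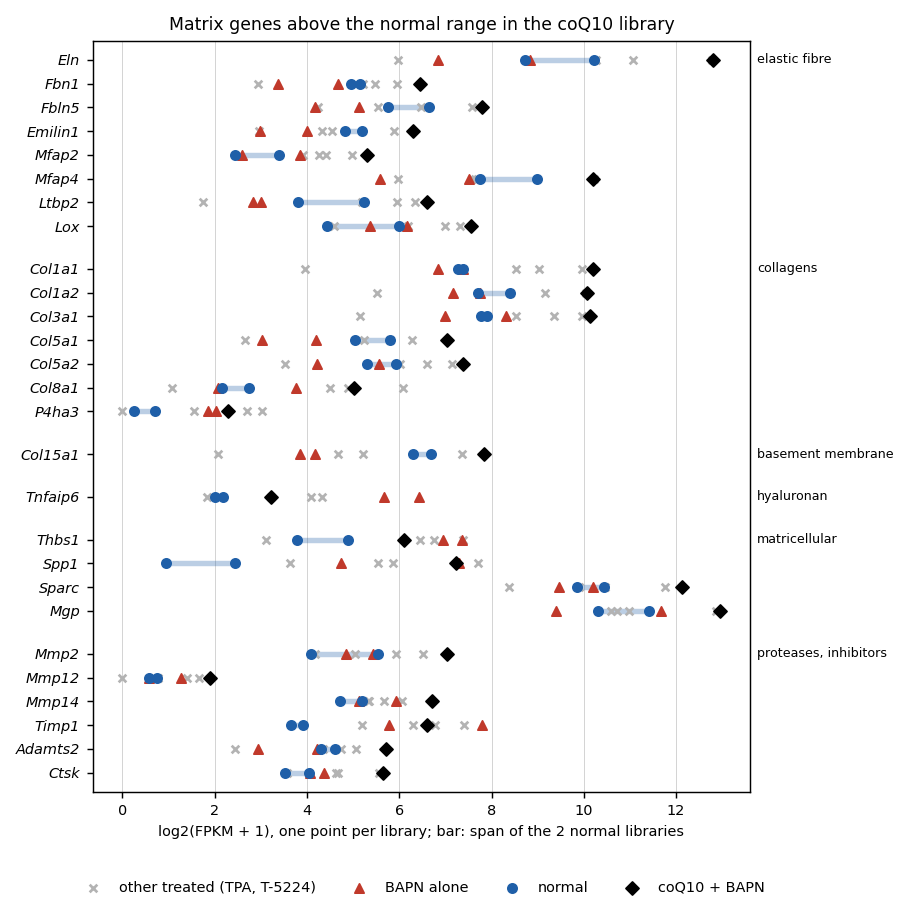
The 27 matrix genes at least 1 log2 unit above the normal range in the coQ10 library, with log2(FPKM + 1) on the x axis and a point per library (blue circles normal, red triangles BAPN, black diamond coQ10 plus BAPN, grey crosses BAPN with TPA or T-5224). The coQ10 diamond lies to the right of the blue bar, the span of the 2 normal libraries, for every gene by construction. For Eln, Mfap4, Col1a1, Col1a2 and Sparc it also lies to the right of both BAPN libraries, which it does not for Thbs1, Timp1 or Tnfaip6.

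The other matrix lists held fewer such genes. Among matricellular proteins, which bind matrix and cells without being structural, 4 of 24 lay above the range. Spp1 (osteopontin) had 4.40 and 0.91 FPKM in normal aorta and 149 in the coQ10 library, 33.9 times the higher normal value, and 156 and 25.5 in the BAPN libraries. Sparc, a collagen-binding protein, had 922 and 1393 against 4484. Mgp, matrix Gla protein, which keeps arteries from calcifying, had 1272 and 2739 against 7985. Thbs1 (thrombospondin-1) had 28.7 and 12.8 against 67.3, between the normal and the BAPN libraries (163 and 122). Fn1 (fibronectin) was higher than both normal libraries by less than the margin (231 and 530 against 710), and Postn, Tnc and Ctgf were inside the range. Of the basement membrane list only Col15a1 was above (78.0 and 103 against 227), 1 of 20, while 9 were inside. Of the proteoglycan list only Tnfaip6, a hyaluronan-binding protein, was above (2.99 and 3.51 against 8.30), and after median-of-ratios scaling it was 0.97 above, just short of the margin. Biglycan (Bgn) had 1517 and 2883 against 5331, higher than both by less than the margin, while decorin (Dcn, 666 and 318 against 414) was inside.

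Matrix proteases and their inhibitors had 6 of 33 members above the range and 0 below. Mmp2, a gelatinase, had 45.7 and 16.0 FPKM in normal aorta and 130 in the coQ10 library, a log2 difference of 2.21 (SE 0.70). Mmp14, the membrane-bound protease that activates pro-Mmp2, had 25.4 and 35.3 against 104. Mmp12, the macrophage elastase, was low in all of these libraries, at 0.69 and 0.50 against 2.72. Ctsk (cathepsin K), which cuts collagen and elastin, had 15.4 and 10.6 against 48.9, and Adamts2, which trims procollagen, had 18.8 and 23.5 against 51.7. The inhibitor Timp1 had 11.7 and 14.2 against 95.8, 6.77 times the higher normal library, and 221 and 54.2 in the BAPN libraries. Genes for making matrix and for cutting it thus stood above the normal range in the same library. Mmp9 and Mmp3, by contrast, were slightly lower than both normal libraries (0.73 and 10.8).

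**Figure D2:**
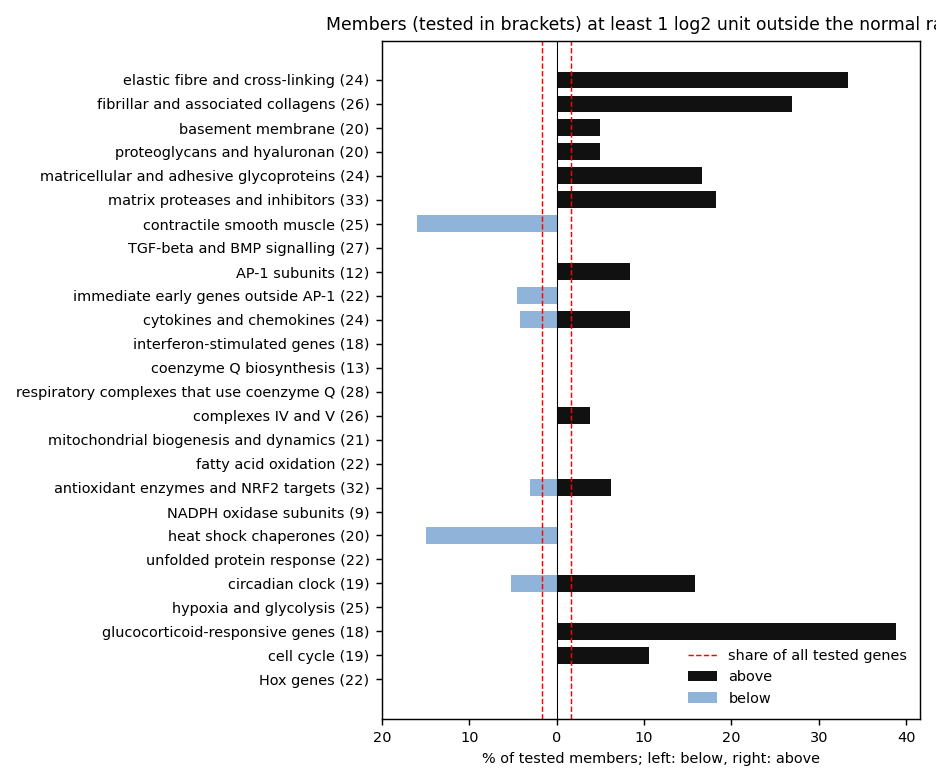
Share of each pathway list's tested members (number in brackets) at least 1 log2 unit above (black, right) or below (blue, left) the normal range, in percent, with dashed lines at the shares of all tested genes (1.62% above, 1.67% below). The glucocorticoid-responsive list has the largest share above (38.9%), the elastic fibre list the next (33.3%), and the contractile list the largest share below (16.0%).

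Genes farthest above the range, apart from these lists, came from several sources. Cthrc1, a secreted protein of injured arteries and remodelling collagen, had 1.35 and 0.55 FPKM in normal aorta and 77.3 in the coQ10 library, 57.3 times the higher normal value (log2 difference 5.36, SE 1.34). The BAPN libraries had 9.29 and 3.19. C1qtnf3, a secreted protein of the C1q and tumour necrosis factor family, had 2.07 and 0.46 against 16.6, with 0.59 and 2.35 under BAPN. Apold1, an early response gene of endothelium, had 6.81 and 4.02 against 47.2 and was higher still in the BAPN libraries (112 and 129). Wfdc21, a small secreted protein, had 2.89 and 0 against 22.5. Stfa2 and Stfa2l1, cysteine protease inhibitors of myeloid cells and members of a family of close copies, were listed at 0 in both normal libraries and at 4.66 and 5.70 in the coQ10 library. Red cell genes were above the range in 5 of 9 tested members, where 1.62% of all tested genes were. Hbb-bs had 1850 and 1397 against 10453, Hba-a2 had 1325 and 1041 against 6871, and Alas2, the haem synthesis enzyme of erythroid cells, had 17.3 and 12.5 against 83.2. Hba-a1 and Hba-a2 are near-identical, so the division of fragments between them is uncertain. The red cell values of the coQ10 library were still far under those of the BAPN libraries, where Hbb-bs was 321379 and 375059.

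Contractile genes of smooth muscle lay mostly inside the normal range. Of 25 tested members 18 were inside (38.5% of all tested genes were), 0 above and 4 below, and the list's median difference was -0.28, against -0.10 for all genes. The width of the normal range bears on this count: genes whose normal libraries lay more than 1 log2 unit apart were inside in 74.7% of cases and other genes in 27.7%. Of the contractile genes 20 had such a wide range, of which 18 were inside, and 0 of the other 5 were. Acta2, smooth muscle actin, had 3191 and 9310 FPKM in the normal pair, 745 and 246 in the BAPN pair and 5014 in the coQ10 library. Myh11, the smooth muscle myosin heavy chain, had 684 and 2005 in the normal, 75.5 and 50.0 in the BAPN and 870 in the coQ10 library. In both genes normal library 1 was the lower one, and the coQ10 value lay between the normal libraries, clear of both BAPN libraries. Lmod1, an actin nucleator, had 116 and 432, then 10.5 and 3.92, then 205 in the same order. Cnn1 (calponin) had 497 and 1176, 84.4 and 31.0, and 627. Myocd, the coactivator that drives this programme, had 9.42 and 41.8, 1.09 and 0.39, and 9.99, which sat at the lower edge of the normal range.

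In all, 19 of the 25 contractile genes were below the range in both BAPN libraries and 13 of these (68.4%) were inside it in the coQ10 library. Over all tested genes 500 (3.85%) did the same, 30.4% of the 1646 that were below the range in both BAPN libraries, and 196 of the 500 had normal libraries more than 1 log2 unit apart. That total depended on scaling: it was 218 after median-of-ratios scaling and 2599 after rescaling to TPM, a scaling in which haemoglobin takes its large share of the sum in the BAPN libraries. The contractile count stayed between 11 and 15 under the scalings and the length correction. RefSeq promoters were found for 11 of the 13 contractile genes, and 1, Vcl, had a CArG box, the site of serum response factor, in the 250 bases before the start, where 1.47% of all promoters had the motif.

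Of the contractile genes below the range, 3 are described here, none of them a thin filament or myosin gene. Des, the muscle intermediate filament desmin, had 383 and 58.1 FPKM in normal aorta and 21.3 in the coQ10 library. Synm (synemin), its filament partner, had 22.3 and 20.3 against 6.66. Pln (phospholamban), which restrains the calcium pump, had 134 and 7.53 against 1.24. Synm (4.89 and 5.89) and Pln (0.63 and 1.64) were lower than both normal libraries in the BAPN pair as well. Des was lower than both in BAPN library 2 (35.3) but inside the range in BAPN library 1 (109). Des and Pln are also cardiac or skeletal muscle genes, and for these the normal libraries were far apart. Ldb3 (122 and 106 against 29.5) and Myoz2 (190 and 83.3 against 16.8), Z-disc proteins of striated muscle, were among the 15 genes farthest below the range, and Ryr2, the cardiac calcium release channel, was below it at 9.68 and 8.13 against 2.66.

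Other genes that were low under BAPN and inside the normal range in the coQ10 library included regulators of vascular tone and growth. Sost (sclerostin), a Wnt inhibitor made by aortic smooth muscle, had 291 and 1158 FPKM in the normal pair, 9.60 and 5.00 in the BAPN pair and 430 in the coQ10 library. Adra1d, an alpha-1 adrenergic receptor, had 14.7 and 55.0, then 0.40 and 0.19, then 27.4. Adcy5, an adenylate cyclase, had 61.1 and 254, then 3.65 and 3.38, then 101. Hyal1, a hyaluronidase, had 30.0 and 70.7, then 0.84 and 0.71, then 34.1. Angptl2, a secreted angiopoietin-like protein, had close normal libraries (78.9 and 69.6) and 72.6 in the coQ10 library, with 6.46 and 7.26 under BAPN. Actn1, Prelp, Cped1, Lgr6, Scube3, Mylk4, Mrvi1 and Dsp were the others that the naming rule took besides Myh11 and Lmod1.

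Signalling genes of the TGF-beta and BMP family showed no member outside the range by the margin, and 15 of 27 were inside. With 1.62% and 1.67% of all tested genes outside, a count of 0 among 27 is near the background. Of the 9 members with a wide normal range 8 were inside (74.7% of all such genes), and of the other 18, 7 were (27.7%). The ligands Tgfb2 (14.2 and 30.1 FPKM normal, 15.3 with coQ10) and Tgfb3 (44.8 and 116, 62.0) and the receptors Tgfbr1 (15.8 and 46.4, 18.2) and Tgfbr2 (65.1 and 57.3, 62.5) were inside. Tgfb1, the ligand most tied to fibrosis, had 53.6 and 49.6 against 82.6, higher than both by less than the margin. The inhibitory Smad7 was inside at 12.5, near its lower normal value of 10.8. Of the 27 genes, 11 were below the range in both BAPN libraries and inside it with coQ10, a count that was 4 after median-of-ratios scaling and 2 after the length trend was removed.

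Genes that were high under BAPN and inside the normal range in the coQ10 library numbered 255 (1.96%), 42.1% of the 605 that were high in both BAPN libraries. Of these, 137 had normal libraries more than 1 log2 unit apart, and the total was 383 after median-of-ratios scaling and 60 after rescaling to TPM. Of the 10 sympathetic neuron markers, 9 were among them. The normal libraries lay more than 1 log2 unit apart for 8 of the 10, and all 8 were inside (74.7% of all such genes were), as was 1 of the other 2. The list mean of log2(FPKM + 1) was 0.77 in the coQ10 library, 0.42 and 3.80 in the T-5224 pair and 2.18 and 5.06 in the TPA pair. Low values were thus not particular to the coQ10 library. Dbh, which makes noradrenaline, had 3.78 and 0.20 FPKM in the normal pair, 275 and 270 in the BAPN pair and 0.22 in the coQ10 library. Th, the first enzyme of that pathway, had 9.14 and 0.16, then 183 and 194, then 1.45. Slc6a2, the noradrenaline transporter, had 1.11 and 0.12, then 116 and 117, then 0.15. The coQ10 library lay near normal library 2, and the upper end of the range came from normal library 1 in all 3 genes. Ddc, Gal, Hand1, Scg2 and Chga, further neuronal or neuroendocrine genes, were named by the same rule. Without normal library 2, where inside meant within 1 log2 unit of normal library 1, the count of such markers was 4, since the coQ10 library then lay more than 1 log2 unit under normal library 1 for several.

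Cytokines and chemokines were high in both BAPN libraries in 18 of 24 tested genes, and 8 of the 18 were inside the normal range in the coQ10 library. That share, 44.4%, was near the 42.1% of all genes high under BAPN. Cxcl1, which draws neutrophils through Cxcr2, had 3.14 and 1.77 FPKM in the normal pair, 365 and 255 in the BAPN pair and 2.76 in the coQ10 library. Cxcl3, a relative with the same receptor, had 0 and 0.44, then 35.8 and 22.0, then 0. Ccl3, a chemokine of monocytes and T cells, had 0 and 0.62, then 27.9 and 30.3, then 0.35. Il6 and Ccl2 were not inside but stood close to it: Il6 had 0 and 0.10 in the normal pair, 215 and 140 in the BAPN pair and 0.94 with coQ10, and Ccl2 had 1.22 and 0.46, 203 and 97.4, and 2.58. Cxcl2 lay above the range at 1.68 against 0.30 and 0.20, also far under its BAPN values of 98.5 and 68.8. Cxcl12, a homeostatic chemokine of stromal cells, was above at 229 against 95.5 and 78.6, and Ccl5, of T cells and platelets, was below at 0.31 against 3.25 and 6.66. The count of 8 was 4 after rescaling to TPM. Taken as lying within 1 log2 unit of a single normal library, it was 13 without normal library 1 and 14 without normal library 2.

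The promoters of Cxcl1, Cxcl3 and Cxcl10 are shown because NF-kappaB sites close to the start are the known route by which inflammation switches these chemokines on. RefSeq gave promoters for 7 of the 8 chemokine and cytokine genes, and 4 of the 7 (Lif, Cxcl1, Cxcl3 and Cxcl10) had an NF-kappaB consensus on either strand in the 250 bases before the start, where 7.25% of all promoters had it. The site began 71 bases before the start in Cxcl1 and 73 in Cxcl3, and Cxcl10 had sites at 159 and 104 bases. A match is a description of the letters and does not show a bound factor. Capitals mark the consensus, with overlapping matches on opposite strands merged.
Cxcl1 (chr5:90890995-90891244, plus strand): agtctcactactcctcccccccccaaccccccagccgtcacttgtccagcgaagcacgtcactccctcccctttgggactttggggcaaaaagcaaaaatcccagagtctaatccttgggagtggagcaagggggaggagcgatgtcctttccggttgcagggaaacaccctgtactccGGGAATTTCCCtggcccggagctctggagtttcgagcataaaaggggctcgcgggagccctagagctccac
Cxcl3 (chr5:90785851-90786100, plus strand): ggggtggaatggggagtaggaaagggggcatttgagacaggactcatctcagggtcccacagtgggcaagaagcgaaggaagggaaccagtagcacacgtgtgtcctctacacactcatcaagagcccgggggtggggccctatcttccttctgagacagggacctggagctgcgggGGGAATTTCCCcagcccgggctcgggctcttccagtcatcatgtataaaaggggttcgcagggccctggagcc
Cxcl10 (chr5:92348890-92349139, minus strand): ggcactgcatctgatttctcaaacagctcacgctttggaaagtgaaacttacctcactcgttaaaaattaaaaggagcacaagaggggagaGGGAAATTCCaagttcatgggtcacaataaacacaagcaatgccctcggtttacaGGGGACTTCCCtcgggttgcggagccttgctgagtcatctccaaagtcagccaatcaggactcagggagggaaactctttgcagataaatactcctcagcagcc

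**Figure D3:**
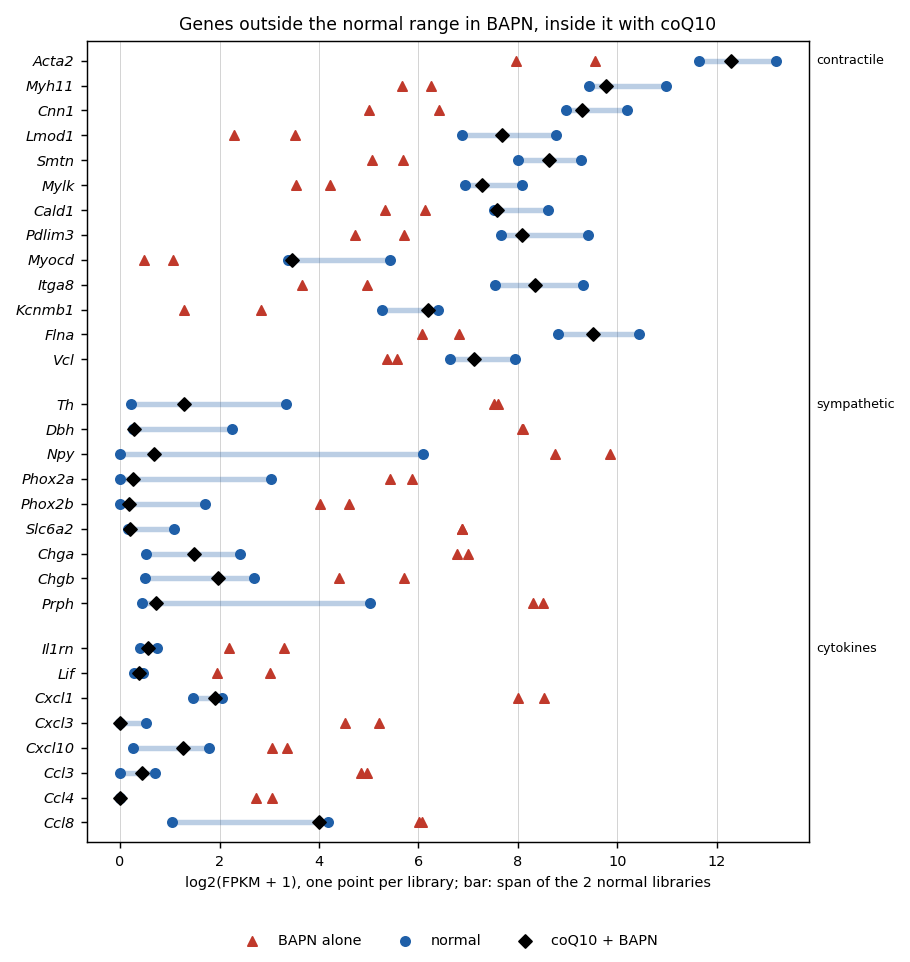
Contractile, sympathetic neuron and cytokine genes that both BAPN libraries (red triangles) put at least 1 log2 unit outside the span of the normal libraries (blue circles and bar) and that the coQ10 library (black diamond) put inside it, on log2(FPKM + 1) with a point per library. The blue bars are long for the neuronal genes (Npy 67.0 and 0 FPKM) and short for Cxcl1 (3.14 and 1.77 FPKM).

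Among AP-1 subunits, the dimeric transcription factor that the series' other agents target, 1 of 12 was above the range. Junb had 49.6 and 40.3 FPKM in the normal pair, 282 and 265 in the BAPN pair and 163 in the coQ10 library, so it lay between the groups (log2 difference 1.85, SE 0.42). Fos was inside the range at 40.6, between 28.1 and 65.9, and Fosb was slightly lower than both normal libraries at 6.96 against 7.75 and 15.1. Jun (68.4 and 70.2 against 121) and Atf3 (10.5 and 24.6 against 29.2) were higher than both by less than the margin. Of 22 immediate early genes outside AP-1, Arc lay below the range (6.23 and 10.1 against 0.93) and 0 lay above.

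Genes of the pathway that coQ10 serves lay inside the normal range. All 28 tested genes for respiratory complexes and dehydrogenases that use coenzyme Q, and for cytochrome c, were inside it, where 38.5% of all tested genes were. In each of them normal library 1 was the higher library. Uqcrc1, a complex III core subunit, had 340 and 124 FPKM in normal aorta and 231 in the coQ10 library. Ndufs1 of complex I had 63.6 and 23.4 against 30.5, and Sdhb of complex II had 240 and 57.9 against 169. The range was wider than 1 log2 unit for 25 of the 28, and 74.7% of all genes with so wide a range were inside it. For coenzyme Q biosynthesis 8 of 13 were inside and 0 outside by the margin: Coq7, the hydroxylase, had 58.6 and 17.0 against 42.1, and Coq2, which attaches the isoprenoid tail, had 36.8 and 22.4 against 31.1. Pdss1, which helps build that tail, was lower than both normal libraries at 1.90 against 3.32 and 2.35. Fatty acid oxidation (18 of 22 inside) and glycolysis and hypoxia genes (19 of 25 inside) had 0 outside by the margin, where 1.62% of all tested genes were above and 1.67% below. Of the 22, 20 had a range wider than 1 log2 unit, of which 18 were inside, and 0 of the other 2 were. Of the 25, 13 had so wide a range, of which 10 were inside, and 9 of the other 12 were. Among genes of complexes IV and V only Cox8b was outside, a subunit of brown fat and striated muscle, at 263 and 53.4 against 800.

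Few antioxidant genes lay outside the range by the margin. Of 32 tested, 2 lay above it and 1 below, where 1.62% and 1.67% of all tested genes did. Those above were Hmox1 (haem oxygenase 1, 28.5 and 14.6 FPKM against 108) and Gpx7 (an endoplasmic reticulum peroxidase, 26.4 and 23.7 against 78.7). Nfe2l2, which encodes NRF2, the factor that drives many of the others, lay below at 78.4 and 54.2 against 25.9. The NRF2 target Nqo1 was inside at 17.2, between 10.9 and 17.6, and 17 of the 32 were inside (38.5% of all tested genes were). Of the 32, 12 had a normal range wider than 1 log2 unit, of which 9 were inside, and 8 of the other 20 were. Hmox1 was higher in the BAPN libraries (801 and 206) than in the coQ10 library.

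Clock, glucocorticoid-responsive and chaperone genes were outside the range more often than most lists. In the clock, Clock and Arntl proteins bind E-boxes, switch on Per, Cry, Nr1d1 and Ciart, and are held back by those products in turn, so levels depend on the hour. The labels give no hour of killing. Ciart had 7.66 and 5.25 FPKM in normal aorta and 43.7 in the coQ10 library, 5.71 times the higher one, with 0.17 and 1.8 under BAPN. Nr1d1 (Rev-erb alpha) had 50.5 and 35.3 against 120, and Per1 had 40.5 and 38.2 against 103. Cry1 was below the range at 13.1 and 19.1 against 4.54, and Per2 was lower than both normal libraries (43.4 and 74.6 against 23.1) by less than the margin. Of 19 clock genes 3 were above, 1 below and 2 inside, and without normal library 1 the count above was 7.

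The promoters of Ciart, Per1 and Cry1, 2 genes from above the range and 1 from below, are shown for their E-boxes. The letters CACGTG, which read the same on both strands, occurred in the 250 bases before any RefSeq start in 5 of 16 clock genes with a promoter entry. Counted by single entries instead of genes, 6.02% of all promoters had them. Ciart had 3 copies, at 116, 58 and 44 bases before the start, Per1 had 1 at 166 bases, and Cry1 had 1 at 60 bases. Capitals mark the E-box.
Ciart (chr3:95882229-95882478, minus strand): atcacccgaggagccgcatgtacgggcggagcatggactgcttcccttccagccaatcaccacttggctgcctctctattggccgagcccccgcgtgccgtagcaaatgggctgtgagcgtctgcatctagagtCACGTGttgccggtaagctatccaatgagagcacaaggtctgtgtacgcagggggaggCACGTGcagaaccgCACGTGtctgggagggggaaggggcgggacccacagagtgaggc
Per1 (chr11:69098699-69098948, plus strand): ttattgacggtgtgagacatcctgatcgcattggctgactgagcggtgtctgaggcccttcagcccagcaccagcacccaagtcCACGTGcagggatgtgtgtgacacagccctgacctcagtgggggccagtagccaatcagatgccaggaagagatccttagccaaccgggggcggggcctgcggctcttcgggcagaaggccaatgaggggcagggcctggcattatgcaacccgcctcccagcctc
Cry1 (chr10:85185055-85185304, minus strand): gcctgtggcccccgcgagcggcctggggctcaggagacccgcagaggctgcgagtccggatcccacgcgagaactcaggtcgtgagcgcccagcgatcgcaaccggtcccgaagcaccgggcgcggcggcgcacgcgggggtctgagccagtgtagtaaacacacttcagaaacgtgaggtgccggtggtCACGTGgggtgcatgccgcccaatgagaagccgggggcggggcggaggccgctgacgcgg

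Of 18 glucocorticoid-responsive genes 7 (38.9%) lay above the range and 0 below, against 1.62% and 1.67% of all tested genes. Per1 is among the 7 and is also counted with the clock genes above the range. The metallothioneins Mt1 (928 and 1113 FPKM against 4348) and Mt2 (319 and 692 against 3471) bind zinc and copper and were at similar or higher levels in the BAPN libraries (5448 and 3215 for Mt1). Ddit4, an inhibitor of mTOR signalling, had 51.9 and 54.1 against 267, with 59.4 and 92.3 under BAPN. Nfkbia, the inhibitor of NF-kappaB, had 77.0 and 98.8 against 263, Cebpd had 49.6 and 39.9 against 125, and Saa3 had 2.27 and 0 against 9.59. Other genes on the list were placed differently: Fkbp5 was inside the range (51.8, between 41.5 and 81.1), Tsc22d3 was lower than both normal libraries (106 against 189 and 112), and so was Zbtb16 (27.7 against 39.0 and 70.0). Several of the 7 also answer inflammation or stress, so the name of the list does not describe all of them. The count was 7 under each scaling tried and 8 without either normal library.

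Heat shock chaperones lay low. Of 20 tested, 15 were lower than both normal libraries (36.4% of all tested genes were), 3 of them by the margin and 0 above by it, and the median difference was -0.49. The list mean of log2(FPKM + 1) was 6.81 and 7.21 in the normal pair and 6.31 in the coQ10 library. It was also under both normal libraries in the BAPN pair (5.86 and 5.49), the TPA pair (6.49 and 6.54) and the T-5224 pair (6.15 and 6.36). The low mean was therefore not particular to the coQ10 library. Hsp90aa1, the inducible Hsp90, had 197 and 235 FPKM against 62.6. Hspa4l, an Hsp110 family exchange factor, had 20.9 and 15.7 against 3.98 (log2 difference -1.94, SE 0.34). Chordc1, an Hsp90 partner, had 25.7 and 28.8 against 11.5, and was 0.82 below the range after median-of-ratios scaling. Hspa8, the constitutive Hsc70, had 1567 and 2434 against 883, lower than both by less than the margin. Hspa1a and Hspa1b, near-identical inducible genes, had 40.4 and 38.7 in the coQ10 library, and their normal libraries were far apart (44.8 and 145 for Hspa1a). Without normal library 1 the count below was 9. Genes of the unfolded protein response, the matching programme of the endoplasmic reticulum, had 0 of 22 outside by the margin. With 1.62% of all tested genes above and 1.67% below, that count is near the background.

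**Figure D4:**
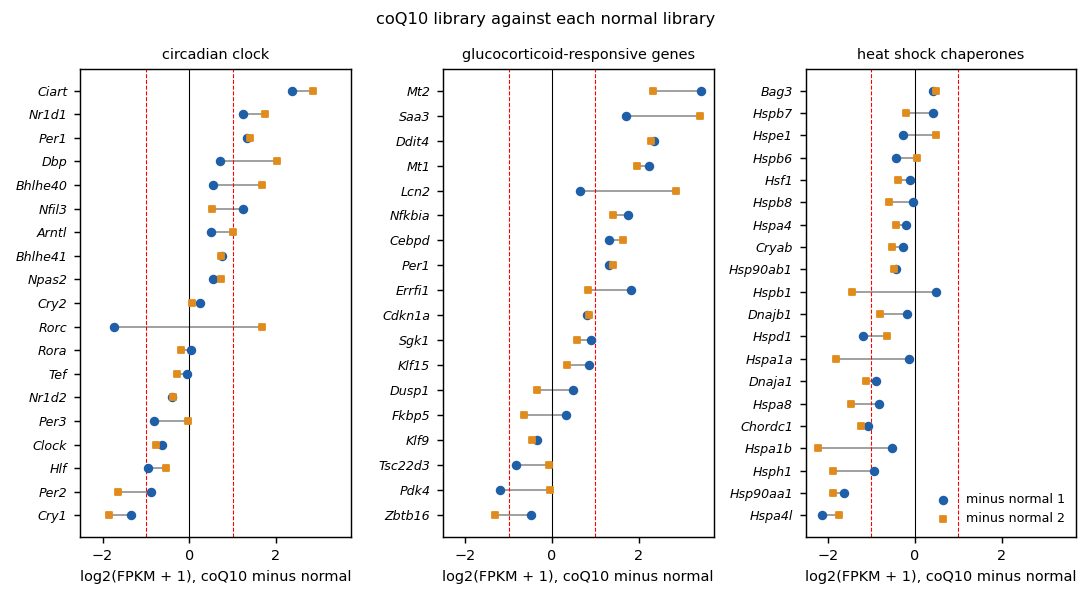
Difference in log2(FPKM + 1) between the coQ10 library and normal library 1 (blue circles) or 2 (orange squares) for every tested clock, glucocorticoid-responsive and heat shock gene, with dashed lines at 1 above and below 0. Both points lie beyond the same dashed line for Ciart, Nr1d1, Per1 and Cry1 in the clock panel, for 7 genes in the glucocorticoid panel and for Hspa4l, Hsp90aa1 and Chordc1 among the chaperones.

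Genes farthest below the normal range were in part genes of other tissues or of gene copies. Scgb3a2, a secretoglobin of airway epithelium, had 1496 and 5.27 FPKM in the normal libraries and was listed at 0 in the coQ10 library. Retnla, a product of alternatively activated macrophages and airway cells, had 473 and 63.0 against 8.08. Jchain, of antibody-secreting cells, had 48.2 and 3.96 against 0.29. Inmt, a methyltransferase high in lung, had 68.3 and 46.1 against 12.7. Normal library 1 was the higher in each of these 4, and airway markers were high there. Zfp790, a zinc finger factor, was more even, at 5.57 and 6.02 against 1.02, as was Rtp3, at 5.67 and 5.30 against 0.73. Gvin1, an interferon-induced GTPase, had 8.27 and 3.51 against 0. Tmem254c had 42.8 and 45.3 against 0.46 (log2 difference -4.95, SE 0.45, adjusted p = 0.197 by limma), and its near-identical copy Tmem254b had 0 and 0.95 against 24.4. All 7 treated libraries shared this exchange, with Tmem254c between 0 and 1.09 and Tmem254b between 7.28 and 26.5, so how fragments were divided between the copies is uncertain. The histone copies Hist2h3c1 (20.5 and 10.9 against 0) and Hist2h3c2 (1.33 and 0 against 13.6) were exchanged in the coQ10 library, but the other treated libraries did not share this. Hist2h3c1 was 9.36 and 8.97 in the TPA pair and 15.85 in T-5224 replicate 1, and 0 in the BAPN pair and T-5224 replicate 2. Hist2h3c2 was 2.09 and 0.67 in the BAPN pair, 1.21 and 0 in the TPA pair, and 0 in the T-5224 pair.

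Cell type markers placed the tissue as arterial wall: the smooth muscle mean was 9.42 in the coQ10 library, between 9.32 and 10.3 in the normal libraries, with Acta2 at 5014 FPKM. The endothelial mean was slightly higher than in both normal libraries (5.92 against 5.57 and 5.25), with 1 of 13 outside the range, the tight junction gene Cldn5 (28.3 and 48.4 FPKM against 250). Fibroblast markers had 0 of 12 outside by the margin and 7 inside, with Pdgfra at 12.2 between 15.8 and 7.32. Macrophage markers had a mean of 3.79, between 4.08 and 3.12. Within that list Trem2, a receptor of lipid-associated macrophages, lay above the range (1.63 and 0.40 against 12.3), and Cd163 (15.9 and 12.9 against 4.33) and Lyve1 (39.3 and 18.6 against 8.17), markers of resident macrophages, lay below. The general macrophage genes Cd68 (35.3 and 7.10 against 23.6) and Csf1r (22.2 and 9.65 against 18.5) were inside. Neutrophil markers had a mean of 1.96, between 2.58 and 1.55, and of 9 tested members 3 were higher and 4 lower than both normal libraries. S100a8 (10.5 and 9.47 against 41.1) and S100a9 (14.0 and 12.4 against 52.9) were above the range, far under the BAPN libraries (754 and 395 for S100a8). Ltf (lactoferrin), also an epithelial product, had 251 and 1.33 against 0.22. Brown adipocyte genes Elovl3 (1.28 and 0 against 8.29) and Cox8b were above, and Ucp1 (271 and 31.2 against 297) was higher than both by less than the margin.

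**Figure D5:**
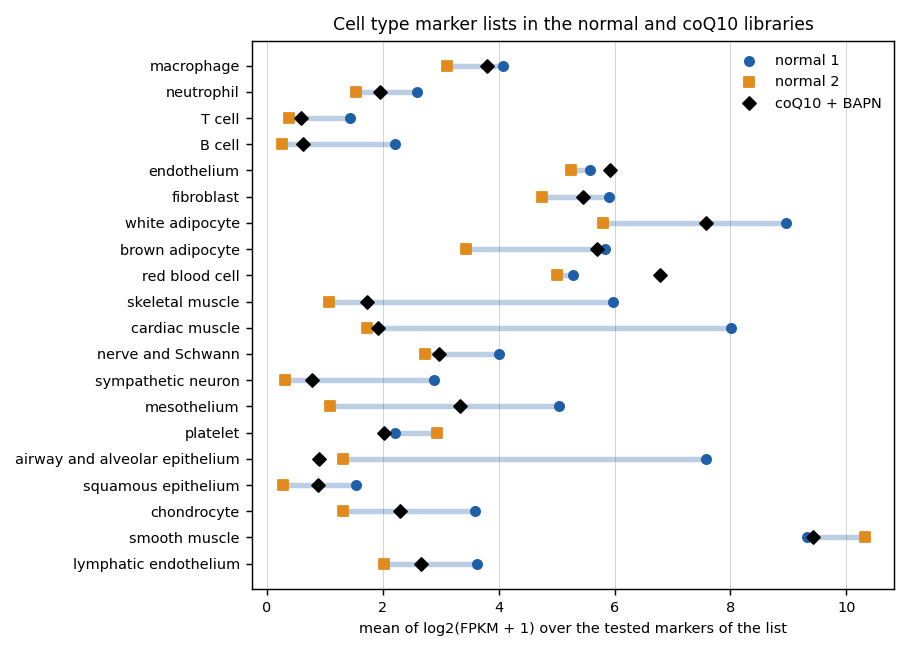
Mean of log2(FPKM + 1) over the tested markers of each cell type list in normal library 1 (blue circles), normal library 2 (orange squares) and the coQ10 library (black diamonds), with a bar for the span of the normal libraries. The bar is long for airway (7.59 and 1.32), cardiac, skeletal muscle and mesothelial lists. The coQ10 library lies nearer normal library 2 for airway, cardiac and skeletal muscle, and nearer normal library 1 for mesothelium. The red blood cell diamond (6.78) lies to the right of both normal libraries (5.28 and 5.00).

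Among the lists not yet described, cell cycle genes had 2 of 19 tested members above the range (1.62% of all tested genes were) and 0 below, with 15 higher than both normal libraries (25.1% of all tested genes were). Ccna2, cyclin A2, had 3.39 and 1.10 FPKM against 7.98, and Ccnb1, cyclin B1, had 1.08 and 0.27 against 3.27, while Mki67, a common mark of dividing cells, was inside at 0.49, between 1.87 and 0.21. These values are low, and what depth they rest on is unknown. Interferon-stimulated genes (18 tested), NADPH oxidase subunits (9 tested), mitochondrial biogenesis genes (21 tested) and Hox genes, which mark position along the body (22 tested), had 0 outside by the margin. These counts are near the background too, with 1.62% of all tested genes above and 1.67% below.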

How the data were processed

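RNA from mouse aorta was extracted with Trizol and made into TruSeq libraries, per the labels' protocols. Each library has a table of FPKM by gene symbol, deposited by the authors, and the submitters' processing notes name the build mm10. The aligner, counting tool and annotation were not given in the sources used here. FPKM carry no counts, so the depth per sample is unknown and no counting interval or floor was computed. Between 13982 and 16204 genes were listed per library, 17179 in all, and a gene not listed in a library was set to 0.

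Values were transformed to log2(FPKM + 1). The 12997 genes whose FPKM averaged 1 or more across the libraries were fitted in limma 3.58.1 (R 4.3.3) with 5 groups, an intensity trend and 4 residual degrees of freedom. The contrast was coQ10 plus BAPN minus normal, two-sided, adjusted by Benjamini-Hochberg over all tested genes, with a threshold of 0.05. The labels do not say that libraries came from separate animals, so p-values measure only the spread between these samples. Position relative to the normal range was described with a margin of 1 log2 unit and no p-value. The limma script was tested on simulated data. Coordinates and the 250 bases before each start came from RefSeq tables (GRCm38.p6), which held 99.7% of the symbols. Transcript lengths came from the GENCODE mouse transcripts. Python 3.11.15, pandas 2.3.3, numpy 2.4.6 and matplotlib 3.10.9 were used.

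The comparison, the gene lists and the rules were chosen with earlier results of these data known. Named genes were the 15 farthest above and the 15 farthest below the range under both the deposited and the median-of-ratios scaling, the 15 back inside it from each side with the largest gap under BAPN, up to 6 members per pathway list farthest outside, every matrix member outside by the margin, and up to 3 members per marker list. Clone-like, immunoglobulin and Y-linked symbols were left out of the first 2 sets. Some genes that the rule takes are left unnamed and not reported here. List members named beyond this rule were chosen after their values were seen. Alternatives were median-of-ratios scaling, rescaling to TPM, leaving haemoglobin out of the sum, a pseudocount of 0.1, no filter on low values, margins of 0 and 2, a fit on the normal and coQ10 libraries only, no intensity trend, and each library left out in turn. Removal of a trend with transcript length was added after seeing the data.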

Additional observations from a re-analysis of the deposited data

Results flagged for a closer look

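The libraries of mice given BAPN with TPA or with T-5224 are no side of the comparison with normal aorta, yet some of the 27 matrix genes above the normal range in the coQ10 library were above it there as well. In T-5224 replicate 1, 17 of the 27 were at least 1 log2 unit above both normal libraries, with Col1a1 at 990 FPKM and Eln at 7046. The count was 11 in TPA replicate 1, 6 in TPA replicate 2 and 2 in T-5224 replicate 2, where Col1a1 was 14.6. In the BAPN libraries it was 5 and 5, where 5.94% and 7.69% of all tested genes were above the range. Over all tested genes, 2.83% were above the range in T-5224 replicate 1, 3.72% in TPA replicate 1, 2.85% in TPA replicate 2 and 8.32% in T-5224 replicate 2. These counts share the normal libraries with the coQ10 count.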

How the results depend on the processing

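No gene passed limma under any alternative except without the filter on low values, where 3 did, all higher: 9430069I07Rik, Hist2h2ab and Mup17, listed at 2.52, 2.40 and 1.33 FPKM in the coQ10 library and at 0 in the other 8. Counts of genes outside the range followed the scaling and the margin. Genes below numbered 141 with median-of-ratios scaling, 561 rescaled to TPM, 486 with haemoglobin left out and 597 with a pseudocount of 0.1. A margin of 0 gave 3258 above and 4733 below, and a margin of 2 gave 28 and 7. Leaving out a normal library gave 434 to 1243 above and 594 to 1802 below, where 1 library was left as the range. Genes back inside from above numbered 383 (median-of-ratios), 60 (TPM), 711 (margin 0), 76 (margin 2) and 389 (length trend removed), and 313 and 456 with a BAPN library left out. Genes back inside from below numbered 218, 2599, 1992, 82 and 174 in the same order, and 635 and 805 with a BAPN library left out. With 1 normal library left, inside was taken as within 1 log2 unit of it, so those counts, 473 and 984 from above and 2003 and 2289 from below, rest on another rule. The 27 matrix genes above became 80 at a margin of 0, 6 at a margin of 2, and 45 to 49 without a normal library. For all these counts the cause was not tested. The 82 named genes outside the range stayed outside on the same side under every scaling and with the length trend removed. With haemoglobin left out, 79 were covered. The filter, pseudocount and left-out-normal alternatives could not test this. A gene beyond both normal libraries is beyond either alone, and neither a filter nor a pseudocount changes the order of values. Past the margin of 1 were 78 with median-of-ratios scaling, 75 with TPM, 73 with haemoglobin left out and 75 with the length trend removed. The genes farthest outside were chosen by their place under median-of-ratios scaling too, so the 78 partly reflects that choice. Of the 30 named genes back inside, 10 were no longer so with the length trend removed, 9 without normal replicate 1, 4 without normal replicate 2, and 3 under each of median-of-ratios scaling, TPM and haemoglobin left out. No paired analysis was possible because the coQ10 group has 1 library and shares fewer than 2 replicate numbers with the normal group. The unknown depth limits values near 0.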

Other observations

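Zinc finger genes (symbols beginning with Zfp, Zbtb, Zscan, Zkscan, Zfy or Zim and a number), a group chosen after their values were seen, had 22 of 321 tested members (6.85%) below the normal range in the coQ10 library and 0 above, beside 1.67% and 1.62% of all tested genes. Of the 321, 10 were below the range in both BAPN libraries and inside it with coQ10. The correlation across genes between the longest transcript's length and the difference of the coQ10 library from the normal mean was -0.29 (Spearman's rho, 12954 genes, which are not independent). It was -0.15 against normal library 1 and -0.36 against normal library 2, and -0.18 between the normal libraries themselves.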
